A study of Homo sapiens with 3 samples.

Results

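The mitotic kinesins are motor proteins that use ATP to move along microtubules or to take microtubules apart while a cell divides. Each of the 10 genes examined (KIF11, KIF15, KIF23, KIF20A, KIF20B, KIF4A, KIF14, KIF2C, KIF18A and KIF22) was taken by its symbol, and every probe whose transcript accession belonged to that symbol was kept, whatever its signal. This gave 14 probes for 10 genes, of 34041 probes and 19699 named genes with values on the arrays. A single probe stood for 6 of the genes, and 4 genes (KIF23, KIF20B, KIF4A and KIF22) had 2 probes.

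RNA came from PANC-1, an established cell line from a human pancreatic ductal carcinoma. There were 3 cultures, 1 left untreated as control, 1 given 20 µM cantharidin (CAN) and 1 given 20 µM okadaic acid (OA), with a treatment time of 24 h. The sample labels give this dose for both agents, while the treatment text can be read as giving it for CAN alone. The labels name no vehicle in the control, and no genetic change separates the cultures. Cantharidin is a toxin of blister beetles and okadaic acid a toxin of marine dinoflagellates, and both inhibit the serine/threonine phosphatase PP2A. Each culture was read on 1 Agilent 1-colour array. The groups have no replicates, so no p-value can be given, a culture effect and a treatment effect cannot be told apart, and both agents are compared with the same control array. The epithelial keratins KRT7, KRT8, KRT18 and KRT19 were well above background on all 3 arrays, with intensities from 2503 upward. Of 10 markers of blood, endothelial, acinar and islet cells, the brightest probe was also above background for 8. It was not for CPA1 or for PECAM1, which had another probe above background on the control array alone. The summed intensities of the 10 were 2454, 2541 and 2858 on the control, CAN and OA arrays. After CAN 3 of these 8 were at least 1.5-fold higher, against 27.5% of all genes compared. On the control array INS read 792, CDH5 411 and PTPRC 372, beside 775 for the motor gene KIF11 and 88.2 for KIF18A. Whether signals at such levels come from the named transcripts was not tested. The part of these markers in the results was not tested.

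Kinesins of this kind act in sequence during division. KIF11 and KIF15 slide microtubules apart to keep the spindle bipolar, KIF22, KIF4A, KIF18A and KIF2C move or position chromosomes and trim microtubule ends, and KIF4A, KIF20A, KIF23, KIF14 and KIF20B organize the central spindle and the midbody for cytokinesis. Transcripts of genes for mitosis are typically made in G2 and M phase, and many of their promoters carry a short element called the cell cycle genes homology region (CHR), which is read by the DREAM and MuvB complexes and often lies near CCAAT boxes bound by NF-Y. In RNA from a whole culture, fewer dividing cells and less transcript per dividing cell cannot be told apart.

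The promoters of these genes are shown because CHR letters were found in several of them. All 10 genes had an entry in the RefSeq promoter table of GRCh38.p14, with 1 transcript start each except for KIF22, which had 2. In the 250 bases before the start, a CHR (TTTGAA or TTCGAA, both strands) was found for 6 of the 10 genes, against 14.3% of 35116 promoters of the same length and 12.1% of the 21487 promoters of genes on the array. The 6 were KIF11, KIF15, KIF23, KIF4A, KIF18A and KIF22, and in each the match lay within the last 100 bases, where 4.92% of all promoters held one. The 100 bases before the start are printed here for these 6, in the direction of the gene. They are followed by KIF20A and KIF2C, which had neither CHR spelling and whose signals are given further on. The letters of a CHR and of a CCAAT box (CCAAT, or ATTGG on the opposite strand) are in capitals, with TTCAAA marking a CHR on the opposite strand.
KIF11 (chr10:92593030-92593129, plus strand): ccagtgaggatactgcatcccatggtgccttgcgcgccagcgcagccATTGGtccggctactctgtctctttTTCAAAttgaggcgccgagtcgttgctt
KIF15 (chr3:44761694-44761793, plus strand): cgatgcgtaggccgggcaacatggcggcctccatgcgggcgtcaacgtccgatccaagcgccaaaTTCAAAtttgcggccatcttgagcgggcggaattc
KIF23 (chr15:69414249-69414348, plus strand): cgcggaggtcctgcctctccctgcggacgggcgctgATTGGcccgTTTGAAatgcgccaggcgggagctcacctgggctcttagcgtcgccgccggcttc
KIF4A (chrX:70290004-70290103, plus strand): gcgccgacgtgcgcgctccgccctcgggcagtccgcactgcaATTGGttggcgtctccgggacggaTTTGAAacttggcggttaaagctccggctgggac
KIF18A (chr11:28108157-28108256, minus strand): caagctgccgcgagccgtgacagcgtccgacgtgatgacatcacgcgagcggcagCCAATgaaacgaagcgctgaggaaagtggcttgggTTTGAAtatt
KIF22 (chr16:29790651-29790750, plus strand): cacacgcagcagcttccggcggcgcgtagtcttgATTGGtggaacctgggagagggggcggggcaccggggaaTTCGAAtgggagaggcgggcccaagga
KIF20A (chr5:138179012-138179111, plus strand): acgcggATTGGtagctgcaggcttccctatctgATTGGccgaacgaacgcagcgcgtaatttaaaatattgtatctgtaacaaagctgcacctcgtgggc
KIF2C (chr1:44739737-44739836, plus strand): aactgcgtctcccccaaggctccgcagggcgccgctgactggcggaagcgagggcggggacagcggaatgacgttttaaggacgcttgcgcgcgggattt

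The CHR matches lay at varying distances from the start. The first base of the CHR was 28 bases before the start in KIF11, 35 in KIF15, 34 in KIF4A, 27 in KIF22, 55 in KIF23 and 10 in KIF18A. A CCAAT box preceded it in 5 of these genes, with 20 bases between them in KIF11, 19 in KIF4A, 30 in KIF18A, 34 in KIF22 and 4 in KIF23, and 5.05% of all promoters held both motifs. No CCAAT box was found for KIF15 or KIF2C, while the other 8 genes had one, against 32.0% of all promoters. A GC box (GGGCGG, both strands) was found for 9 genes, with KIF23 as the exception, against 42.6% of all promoters and 54.1% of those of genes on the array, and the E2F-type letters TTTCGCG for none, against 1.10%. No motif match overlapped another in these windows. KIF14 and KIF20B had CHR letters only at or after the start. A match gives letters only, and binding was not measured here.

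**Figure D1:**
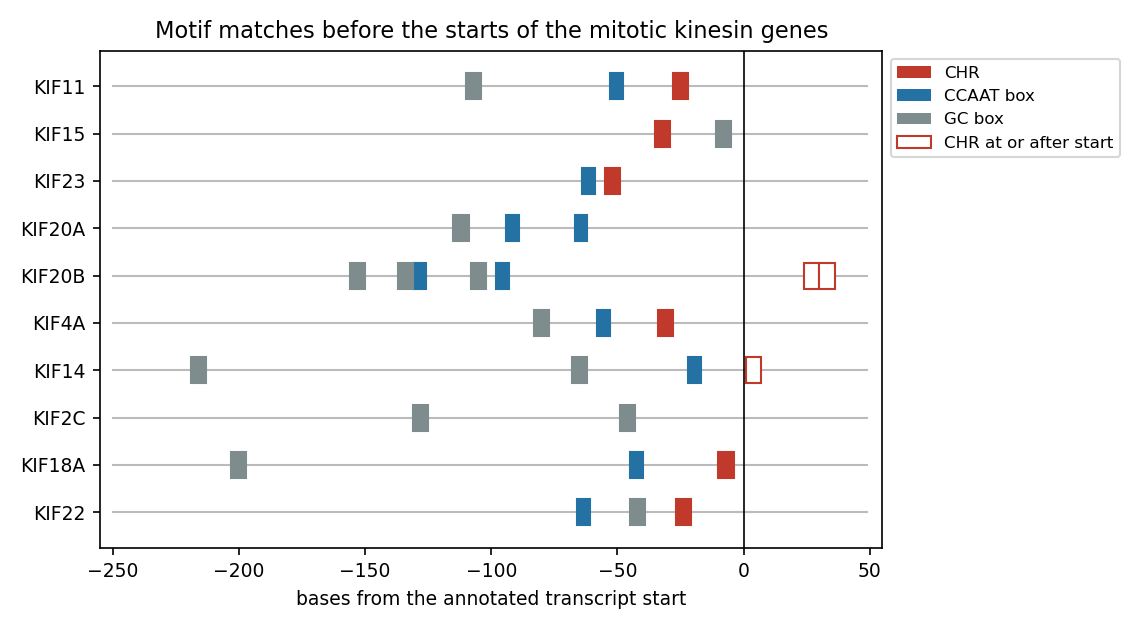
Positions of CHR, CCAAT box and GC box matches around the annotated start of each mitotic kinesin gene, in bases from the start, with open boxes for CHR letters at or after it and 1 window per gene. Red CHR boxes lie within 55 bases before the start in 6 genes, with a blue CCAAT box upstream in 5 of them.

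Most of the mitotic kinesins had a lower signal after either agent. A gene was compared when at least 1 of the 2 arrays measured its probe well above background. It was called higher or lower when its signal, scaled to the 75th percentile of each array, differed at least 1.5-fold. After CAN 8 of the 10 genes were lower, against 34.1% of 16644 genes compared, while KIF20B was higher (27.5% of genes) and KIF14 passed in neither direction. After OA 9 were lower, against 28.8% of 16166 genes, none was higher (28.1% of genes) and KIF18A did not pass. The OA count was 6 without scaling and 7 with another background correction (normexp), since the calls of KIF15 and KIF4A ended under both and that of KIF14 without scaling. The median difference of the 10 genes was -2.57 on the log2 scale for CAN and -1.71 for OA, beside medians of -0.16 and 0.01 over all genes compared. At 2-fold, 8 genes were lower after CAN (22.3% of genes) and 6 after OA (19.0%). At 4-fold, 7 were lower after CAN (8.57%) and 4 after OA (6.69%).

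Most of the 14 probes were also lower, but 6 of the genes had a single probe, which repeats the gene value. The probes of KIF20B differed in sign after CAN, and those of KIF4A and KIF23 in size, as given below. The control array measured all 14 well above background and each treated array 12, and 12 probes were lower after CAN, against 33.0% of probes. After OA 13 were lower by their measured signals, against 27.7%, but 1 of them, the second KIF20B probe, had a control signal that, after scaling, lay under the lowest detected signal of the OA array, and so has no fold. No member spot was flagged as an outlier or saturated. Where a treated array did not measure a probe, its fold is given as a bound ("at least") against the lowest signal called well above background on that array. With such signals at that bound the medians were -2.34 and -1.21, and 6 genes after CAN and 3 after OA were at least 4-fold lower. The spread that could be measured was that between spots of 1 array. From the 50 repeated probes nearest in brightness it gave an SD of the difference of 0.09 to 0.62 for CAN and 0.07 to 0.55 for OA, with the largest values in the dimmest probes, and this SD covers neither culture nor hybridization.

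**Figure D2:**
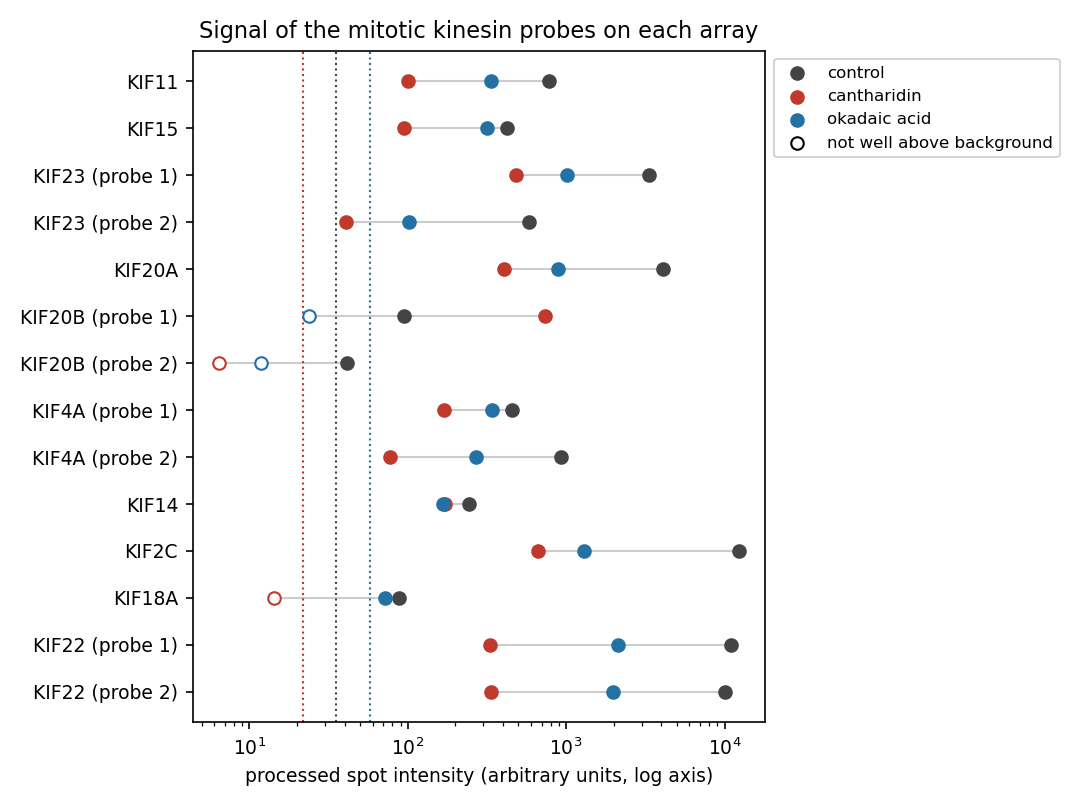
Processed spot intensity of each mitotic kinesin probe on each of the 3 arrays, on a log axis, with open points for signals not well above background and dotted lines at the lowest detected signal of each array. The control point lies to the right of both treated points for every probe except the first of KIF20B, and levels of different probes cannot be set against each other.

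**Figure D3:**
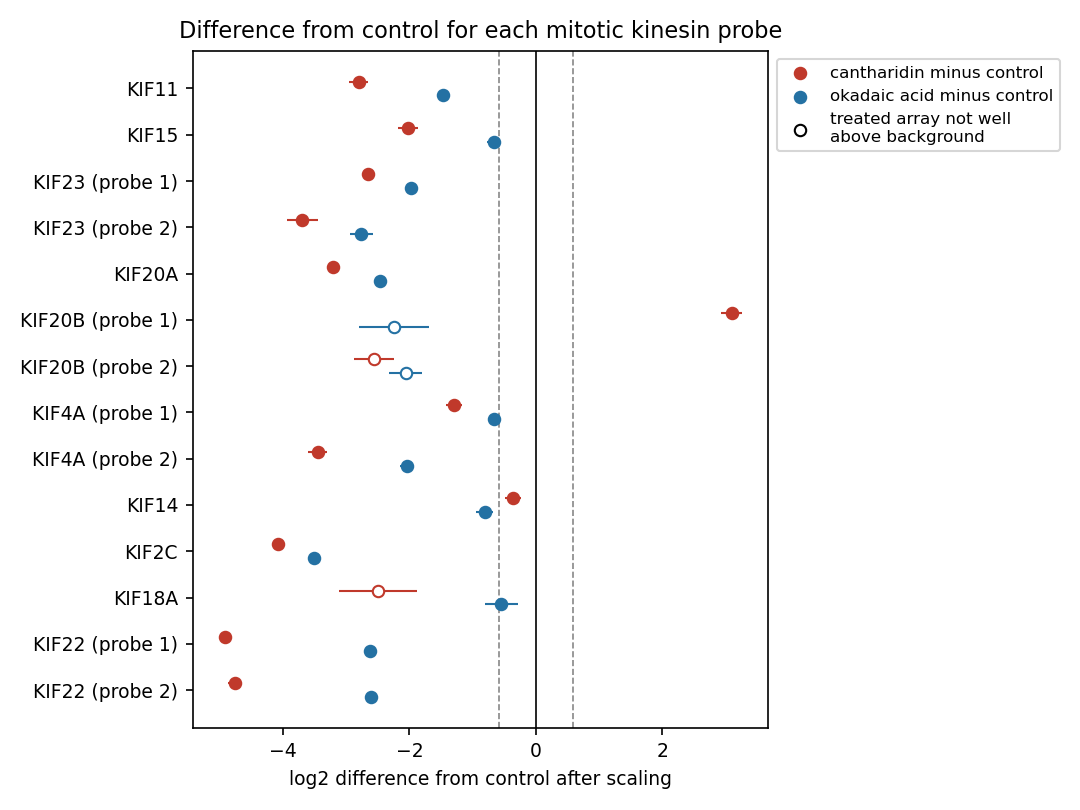
Log2 difference from control after scaling for each probe of the 10 genes, with the SD between spots as bars, dashed lines at 1.5-fold, and open points where the treated array was not well above background. The points spread from -4.91 to 3.10 for cantharidin and from -3.51 to -0.55 for okadaic acid.

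The pole-separating motors were both lower. KIF11 (Eg5), the plus-end motor that pushes the spindle poles apart, had intensities of 775 on the control array, 101 after CAN and 336 after OA. The CAN array was the lowest and the OA array lay between, so that after scaling KIF11 was 6.98-fold lower after CAN (log2 -2.80 ± 0.15, SD between spots) and 2.75-fold lower after OA (-1.46 ± 0.09). KIF15 (Hklp2), which can hold the spindle bipolar when KIF11 is blocked, read 420, 94.1 and 316. Its level after CAN was 4.06-fold lower, while that after OA was only 1.59-fold lower, just inside the threshold.

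KIF22 and KIF2C had the largest CAN differences of the 10 genes. KIF22 (Kid), a chromokinesin that binds chromosome arms and pushes them away from the poles, read 10990, 332 and 2122 on its first probe. The second probe gave nearly the same values, 10075, 337 and 1974. KIF22 was therefore 30.1-fold lower after CAN by the first probe and 27.2-fold by the second, and 6.18-fold and 6.09-fold lower after OA, which left 3.32% and 16.2% of the control level by the first probe. KIF2C (MCAK), a kinesin that does not walk but depolymerizes microtubule ends, most of all at centromeres, read 12393, 665 and 1296. Both treated arrays were low, with KIF2C 16.9-fold lower after CAN and 11.4-fold lower after OA, the largest OA difference of the 10. The KIF2C promoter printed above held neither a CHR in the spellings searched nor a CCAAT box.

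KIF4A and KIF18A, which also act on chromosome position and microtubule length, had smaller or less well measured differences. KIF4A, a chromokinesin that sets the length of the central spindle together with PRC1, was read by a pair of probes for 1 accession. The first gave 456, 168 and 342, so that KIF4A was 2.46-fold lower after CAN and 1.59-fold lower after OA. The second gave 934, 77.7 and 271, or 10.9-fold and 4.12-fold lower. Both probes had the order control, OA, CAN from high to low, but the sizes differed several-fold, and KIF4B, a near-identical gene copy, had no matched probe that could be read apart. KIF18A, which dampens chromosome movements at the metaphase plate, read 88.2, 14.2 and 72.0, dim throughout and not well above background after CAN. It was at least 3.66-fold lower after CAN. The OA value was 1.46-fold lower (log2 -0.55 ± 0.26, SD between spots), short of the threshold.

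The cytokinesis motors KIF23 and KIF20A were lower after both agents. KIF23 (MKLP1), the motor of the centralspindlin complex that bundles microtubules at the midzone, read 3342, 484 and 1020 on its first probe and 581, 40.8 and 102 on its second. It was 6.27-fold lower after CAN and 3.91-fold after OA by the first, and 12.9-fold and 6.77-fold by the second. Both probes put the control array highest and the CAN array lowest. KIF20A (MKLP2), which carries the chromosomal passenger complex to the central spindle, is the only one of the 10 with a repeated probe, spotted 10 times per array. Its spots ran from 3862 to 4254 (median 4115) on the control array, from 331 to 443 (median 417) after CAN and from 813 to 925 (median 904) after OA. The spots of the 3 arrays did not overlap. The means were 4089 ± 113, 404 ± 35.3 and 889 ± 37.1 (SD, n = 10 spots of 1 array, which are not replicates of the culture), and KIF20A was 9.22-fold lower after CAN and 5.49-fold lower after OA.

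**Figure D4:**
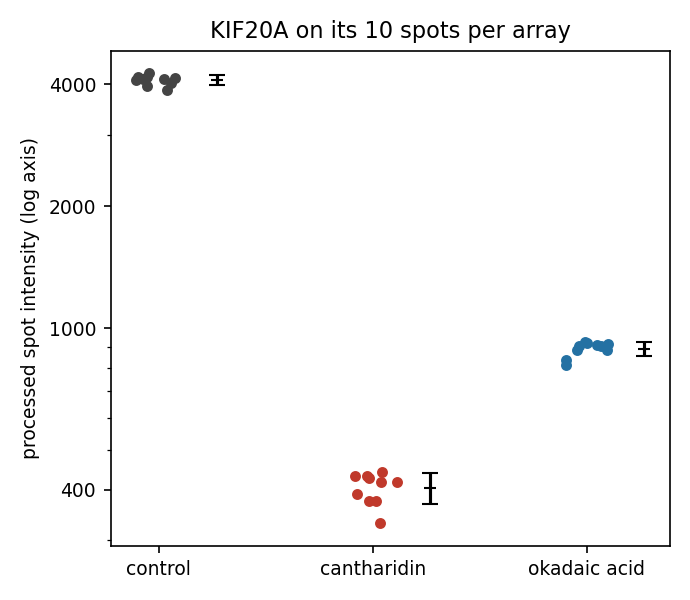
Processed intensity of the 10 spots of the KIF20A probe on each array (points, log axis), with their mean and SD beside them. The control spots start at 3862, above the highest OA spot at 925, and the lowest OA spot at 813 is above the highest CAN spot at 443.

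KIF14 and KIF20B were not called lower after CAN. KIF14, which holds citron kinase at the midbody, read 244, 173 and 166. These signals were 6.98, 7.89 and 2.86 times the lowest detected signal of their arrays. The treated arrays were close, and KIF14 was 1.76-fold lower after OA, whereas the CAN value was 1.29-fold lower (log2 -0.36 ± 0.13, SD between spots), short of the threshold. KIF20B (MPP1), needed late in cytokinesis, was read by probes that disagreed. Its first probe gave 94.8, 736 and 23.9, which was 8.55-fold higher after CAN and at least 1.95-fold lower after OA, where it was not well above background. Its second probe gave 41.5, 6.40 and 11.9, so that only the control signal was well above background, and it was at least 1.72-fold lower after CAN, with no fold for OA. Both probes carry the same transcript accession, and their control signals were 2.71 and 1.19 times the lowest detected signal. The direction of KIF20B after CAN therefore rests on the probe chosen, and the transcripts each probe reads were not tested.

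CAN and OA differed in size for most of these motors. With the agents set directly against each other, 7 of the 10 genes were at least 1.5-fold higher after OA than after CAN, against 29.5% of 16200 genes, 1 (KIF20B, by its first probe) was at least 16.7-fold lower, against 22.3%, and KIF2C (1.48-fold higher) and KIF14 (1.37-fold lower) did not pass. The gap was 4.87-fold for KIF22, at least 2.50-fold for KIF18A, 2.56-fold for KIF15, 2.53-fold for KIF11, 1.68-fold for KIF20A, 1.60-fold for KIF23 and 1.55-fold for KIF4A. It was smaller for KIF20A and KIF23 than for KIF11 and KIF15, but this did not extend to all cytokinesis motors. The second KIF4A probe gave 2.65-fold, and KIF14 and the first KIF20B probe went the other way. With normexp the log2 gaps of KIF11 (0.80) and KIF20A (0.67) were close. The count of 7 fell to 5 with normexp, where KIF23, KIF4A and KIF18A no longer passed and KIF2C did, to 5 with median scaling (without KIF23 and KIF4A) and to 6 with quantile normalization (without KIF4A), and it was 8 without scaling. KIF14 was lower after OA than after CAN with median scaling and quantile normalization. The genes lower after both agents numbered 7, against 21.1% of 16049 genes. Doses were equal by label, but the agents were not matched for potency.

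Genes with and without CHR letters before the start spanned overlapping ranges. The 6 genes with a CHR ran from -4.91 to -1.30 on the log2 scale after CAN (median -2.57) and from -2.63 to -0.55 after OA (median -1.07). The 4 without were KIF20A and KIF2C, and KIF20B and KIF14, which had CHR letters only at or after the start. These 4 ran from -4.08 to 3.10 after CAN (median -1.78) and from -3.51 to -0.81 after OA (median -2.35). With the second KIF20B probe in place of the first they ran from -4.08 to -0.36 after CAN (median -2.88), so that the order of the medians turned, and the OA median was -2.26.

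The 21 partners of these motors, genes for the proteins that load them, guide them or work at the same structures, had a pattern close in size. After CAN 20 were lower (34.1% of all genes compared), 12 of them at least 4-fold (8.57%), and none was higher (27.5%). The CAN median was -2.46. After OA 17 were lower (28.8%), 10 of them at least 4-fold (6.69%), and 1 was higher (28.1%), with a median of -1.88. Of the 4 chromosomal passenger genes, 3 were among those with the largest differences. AURKB, the complex's kinase, read 3567, 81.0 and 134 and lay 40.0-fold and 31.8-fold lower after CAN and OA. BIRC5 (survivin) was 23.9-fold and 13.0-fold lower and INCENP, the scaffold, 15.3-fold and 7.59-fold. CDCA8 (borealin), the remaining subunit, was 4.71-fold and 2.62-fold lower, smaller differences than the list medians. CIT, the citron kinase that KIF14 binds, was 15.3-fold and 13.0-fold lower, ANLN, the midbody scaffold anillin, 17.7-fold and 6.47-fold, and KNSTRN, a spindle protein of kinetochores, 11.7-fold and 6.86-fold. RACGAP1, the partner of KIF23 in centralspindlin, read 4602, 4049 and 7653, which is 1.03-fold lower after CAN and 1.39-fold higher after OA, neither past the threshold. It stood apart from KIF23, which was lower after both. KIFBP, which binds and blocks several kinesins including KIF15 and KIF18A, was 1.87-fold lower after CAN and 1.56-fold higher after OA, signs that held under all 6 scalings and background corrections, with both past 1.5-fold under 5 of them. RACGAP1 and CDCA8 were named after their values were seen.

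Of 6 other mitotic kinesins, KIF18B and KIF4B had no matched probe. CENPE, the kinetochore motor, read 175, 88.0 and 182, 1.80-fold lower after CAN. KIFC1, a minus-end motor of the spindle, read 3399, 1786 and 2925, 1.73-fold lower after CAN. KIF2A, a depolymerase of the same family as KIF2C, read 435, 472 and 437 and passed in neither comparison, and neither did KIF2B at 69.6, 47.3 and 111. The CENPE call was lost with normexp. None of the 4 was called after OA, except KIFC1 as lower with median scaling (-0.59) and KIF2B as higher without scaling (0.67), and in the main scaling their values ran from -0.47 to 0.41 on the log2 scale, while those of the 10 members ran from -3.51 to -0.55.

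The list of transport and other kinesins, which includes light chains, went in both directions. Of the 25 compared after CAN, 10 were higher (27.5% of all genes compared) and 6 lower (34.1%), with a median of 0.13 (-0.01 without scaling). Of the 24 compared after OA, 10 were higher (28.1%) and 4 lower (28.8%), with a median of 0.36. Some had opposite signs under the agents. KIF6 read 53.4, 1240 and 36.1, 25.5-fold higher after CAN and at least 1.10-fold lower after OA. Of its 3 probes, only this 1 was well above background on any array. KLC1, a light chain of the conventional kinesin KIF5, read 720, 2802 and 456, 4.28-fold higher and 1.89-fold lower. KIF1A, the axonal vesicle motor, was 1.95-fold higher after CAN and 2.01-fold lower after OA. KIF26A was 3.01-fold lower and 3.12-fold higher, and KIF7 at least 1.72-fold lower and 1.54-fold higher. KIF26A read 95.6, 28.8 and 357 and KIF7 41.5, 20.0 and 76.0, beside lowest detected signals of 35.0, 21.9 and 58.0. Without opposite signs, KIF13B was 3.00-fold and 2.09-fold higher. The probes of KIF1B, KLC2, KIF16B, KIF21B and KIFC2 disagreed in sign after at least 1 agent. The signs given for KIF6 and KIF7 held under all 6 scalings and background corrections, while their size fell below 1.5-fold in 2 and 3 of them.

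**Figure D5:**
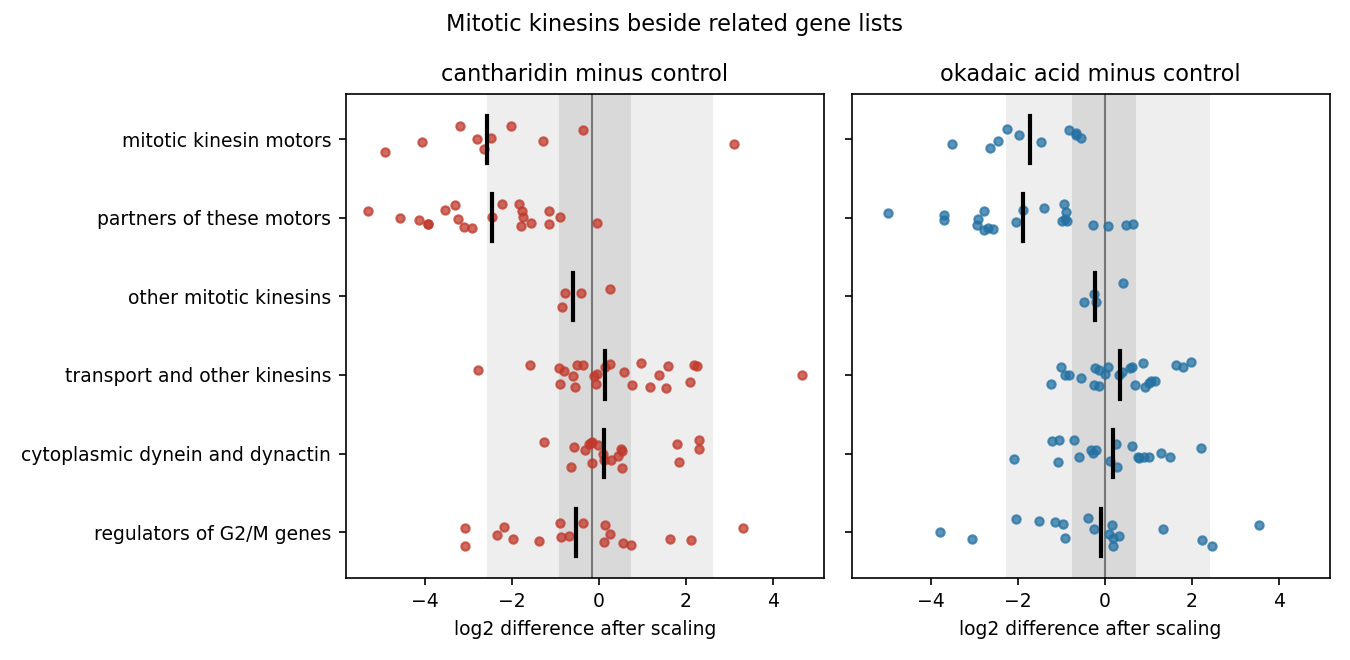
Log2 differences from control after scaling for the 10 mitotic kinesin motors and the related lists, 1 point per gene with black bars at list medians, over bands holding the middle 50% and 90% of all genes compared. The medians of the motors, at -2.57 and -1.71, and of their partners, at -2.46 and -1.88, lie left of the inner bands, and those of the other lists lie within them.

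Of 18 direct or indirect regulators of G2 and M genes, 9 were lower (34.1% of all genes compared) and 4 higher (27.5%) after CAN. After OA 7 were lower (28.8%) and 4 higher (28.1%). FOXM1, the forkhead activator of G2 genes, read 1463, 157 and 126 and was 8.48-fold and 13.9-fold lower. MYBL2, which joins MuvB in S phase, was 3.95-fold and 4.11-fold lower, RBL2, the p130 pocket protein of DREAM, 4.55-fold and 8.26-fold, and NFYB, a subunit of the CCAAT factor NF-Y, 8.41-fold and 1.94-fold. LIN37, a MuvB subunit, was 4.31-fold and 11.7-fold higher, and CDKN1A (p21), an inhibitor of cyclin-dependent kinases, was 9.93-fold and 5.55-fold higher. Their part in the values of the 10 motors was not tested.

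Among 14121 genes outside these lists and well above background on all arrays, the pair of differences nearest the medians of the motors belonged to SEMA6B, at a Euclidean distance of 0.007 on the log2 scale, followed by CENPS (0.05), TMSB15B (0.05), HASPIN (0.09) and TMA7 (0.09). CENPS encodes a centromere protein and HASPIN a mitotic kinase of histone H3. SEMA6B, the nearest, TMSB15B and TMA7 are not known as mitotic genes. The measure uses 2 differences per gene and the same 3 arrays.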

How the data were processed

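Total RNA of 3 PANC-1 cultures was hybridized to 1 Agilent 1-colour array each, with groups from the titles of the samples. Scanner output was deposited as spot intensity values from Feature Extraction 11.0.1.1, background-subtracted and detrended within each array per the file headers, with flags for outliers, background and saturation. A normalized log2 table was deposited too, with 30923 probes, made in a way not given in the sources used here, and it served as an alternative. None of its columns belonged to other samples (0). All arrays lay on 1 slide, so position and group cannot be told apart.

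Log2 intensity was averaged over unflagged spots of each probe, and each array's 75th percentile (784, 713 and 936 for control, CAN and OA) was subtracted. Accessions were matched without version to RefSeq symbols of GRCh38.p14 (25705 of 34127 transcript probes named), whereas the array annotation used hg19, so that names only were carried over. The probe with the highest mean log2 signal represented a gene. A gene was compared when well above background on at least 1 of 2 arrays. Differences were called at 1.5-fold, the threshold used in the study. The lowest detected intensity was 35.0, 21.9 and 58.0. Precision is limited by the number of arrays. The calling steps were tested on simulated data with 4-fold changes in detected probes. That test did not cover dim signals or differences near 1.5-fold.

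Members and lists were chosen with earlier results of these data known. Named genes were all members, up to 6 genes per list with the largest summed difference among genes detected on all arrays, any list gene past 1.5-fold in opposite directions, and the 5 genes of nearest pattern. KLC4 and KIF24 had no matched probe. Alternatives were normexp (offset 50), median, detected-probe, quantile or no scaling, no filter or detection on all 3 arrays, dim signals at the array floor, the deposited table, 2-fold and 4-fold thresholds, probes, the median over probes and the dimmest detected probe. Python 3.11.15 (numpy 2.4.6, pandas 2.3.3, matplotlib 3.10.9) and R 4.3.3 with limma 3.58.1 were used.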

Additional observations from a re-analysis of the deposited data

How the results depend on the processing

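Every alternative kept both medians of the 10 motors below -0.58 on the log2 scale, in a range of -3.00 to -1.69 for CAN and -2.05 to -0.96 for OA. The CAN median was -1.69 with normexp, -2.44 with quantile normalization, -2.71 without scaling, -2.73 with detection on all 3 arrays, -2.34 with dim signals at the floor and -3.00 with the dimmest detected probe. The OA median was -0.96 with normexp, -1.84 with median scaling, -1.46 without scaling, -1.21 at the floor and -2.05 with the dimmest probe. The OA minus CAN median was 0.56 with median scaling, 1.11 without scaling, 0.91 with the median over probes and 1.34 with the dimmest probe. Over all genes that median was 0.13, and 0.52 without scaling. The number of genes lower after OA was 6 without scaling and at 2-fold, 7 with normexp and 4 at 4-fold. The OA calls of KIF15 (-0.51 and -0.41) and KIF4A (-0.47 and -0.41) were lost with normexp and without scaling, and that of KIF14 (-0.56) without scaling. KIF18A after OA passed 1.5-fold with median scaling (-0.67), quantile normalization (-0.66) and the deposited table (-0.79). KIF20B after CAN was -2.56 with its dimmest detected probe, opposite in sign, and 0.27 with the median over its probes. The cause of these changes was not tested. No paired analysis was possible because each group has 1 array. Dim signals of KIF18A and KIF20B give bounds only.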

Other observations

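Cytoplasmic dynein, the minus-end motor that opposes several of these kinesins on the spindle, had few genes called after CAN. Of its 20 subunits and regulators 4 were higher (27.5% of all genes compared), 2 lower (34.1%) and 14 neither after CAN. The CAN median was 0.11 (-0.03 without scaling). After OA 8 were higher (28.1%) and 5 lower (28.8%), with a median of 0.19. The light chain gene DYNLL2 read 3911, 12772 and 21766 on the control, CAN and OA arrays, 3.59-fold and 4.66-fold higher. NDEL1, a dynein regulator, was 3.47-fold and 2.45-fold higher, and DCTN3, a dynactin subunit, 2.40-fold and 2.08-fold lower. DYNLT1, another light chain gene, read 26414, 23757 and 7466 and was 4.22-fold lower after OA, with a CAN value 1.01-fold lower. DYNLT3 and PAFAH1B1 (LIS1) were both 4.94-fold higher after CAN, and 2.82-fold and 1.70-fold higher after OA, on probes that disagreed in sign with another probe of the gene after at least 1 agent.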
